A study of Mus musculus with 4 samples.

Results

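The comparison was of contacts that cross a deletion at the mouse Epha4 locus, between an allele that has lost the domain boundary next to Pax3 (DelB) and an allele that keeps it (DelBs). The contacts are pairs of 10 kb bins on chromosome 1 (build mm9) with one bin upstream of the deletion, in 74830001 to 76390000, and the other downstream, in 78060001 to 80000000. They were chosen by position alone, and 30264 of the 500500 pairs of bins in the map met the rule. One of them was left out because its bins lie under 20 kb apart on the DelB allele (824 counts in DelB, 24 in DelBs), so 30263 pairs were used.

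Mammalian chromosomes fold into topologically associating domains, within which loci contact each other more often than they contact loci beyond the border. Borders often hold clustered binding sites of CTCF, a DNA-binding protein at which loop extrusion by cohesin halts. Epha4 encodes an ephrin receptor tyrosine kinase that is expressed in the limb bud, and in published work on this locus the limb enhancers of Epha4 lie in the gene desert upstream of it. Pax3, the next gene downstream in RefSeq order, encodes a transcription factor of muscle and neural crest precursors. In that published work, removal of Epha4 together with the boundary let the limb enhancers act on Pax3, whereas the deletion that spared the boundary did not.

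Capture Hi-C, which counts ligation events between pairs of fixed genome segments inside a probe-enriched region, was carried out on distal limb buds at embryonic stage E11.5. Each genotype had 1 library: wild type (WT), and homozygous DelB, DelBs and InvF embryos. DelB and DelBs both lack 76390001 to 77860000, a stretch of 1470 kb. DelB also lacks the next 200 kb, 77860001 to 78060000, which makes its deletion 1670 kb long. Both sides of the deletion are otherwise intact in both alleles. InvF is an inversion inside the upstream side and was not compared here. The maps hold contacts only, so the labelled tissue could not be checked against marker genes, and the number of pooled embryos is not given by the labels.

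The libraries held 5543587 counts in DelB, 5832748 in DelBs and 5155274 in WT. The pairs across the deletion took 278068 counts in DelB, 5.02% of that library, 154841 in DelBs, 2.65%, and 41973 in WT, 0.814%. In DelB 85.3% of these pairs had a count (median 3), in DelBs 82.5% (median 2) and in WT 59.8% (median 1). With 1 library per genotype there is no measure of the spread between embryos and no test. Each interval below is an exact 95% interval that covers counting error alone, so a difference outside it is a difference between these libraries.

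The lost 200 kb also brings the sides closer together in DelB, so that raw counts would rise from distance alone. Counts were therefore divided by an expected level: the library's own mean count for that distance on its own allele, over pairs that lie on one side of the deletion. This quotient is called observed over expected, and its value in DelB divided by that in DelBs is called the ratio. A ratio of 1 means equal contact once distance is matched. Same-side pairs themselves fell off with distance almost alike in both libraries at the single distances looked at. Their scaled mean counts stood in a ratio of 0.993 to 1.02 at 20, 50, 100, 200, 500, 1000 and 2000 kb. At 3000 kb they stood in a ratio of 1.11.

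Contacts across the deletion were more frequent in DelB. Over all pairs, observed over expected was 1.46 in DelB and 1.08 in DelBs, a ratio of 1.35 (1.34 to 1.36). In the 500 kb on either side of the deletion it was 1.62 in DelB (112183 counts) and 1.06 in DelBs (45612 counts), a ratio of 1.53 (1.51 to 1.54). The ratio was higher for smaller flanks, each of which holds the next: it was 1.47 for 1000 kb flanks, 1.65 for 250 kb flanks and 1.93 (1.84 to 2.03) for 100 kb flanks. In those innermost 100 kb, DelB stood at its same-side mean with 0.987, and DelBs stood at 0.511. WT, in which the sides are separated by the full interval, had 1.66 over all pairs and 2.17 in the 500 kb flanks, above both mutants. Its expected level is that of longer distances, and its counts were lower, with 9148 in the 500 kb flanks. Without the correction for distance, the scaled counts in the 500 kb flanks stood in a ratio of 2.57, and 1.87 over all pairs.

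Same-side contacts next to the junction did not share the difference. Within the upstream 500 kb the ratio was 1.00 (0.997 to 1.01), and within the downstream 500 kb it was 0.966 (0.958 to 0.974).

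Along the upstream side the excess in DelB rose away from the deletion, held a plateau and ended within about 100 kb. Windows of 100 kb were counted outward and each was set against the downstream 500 kb. The ratio was 1.26 in window 1, 1.48 in window 2, 1.64 in window 3 and 1.78 in window 4. It was highest in window 5, at 75890001 to 75990000, with 1.91 (1.87 to 1.96) from 23424 counts in DelB and 9162 in DelBs. Windows 6, 7 and 8 had 1.87, 1.69 and 1.69. Window 9, at 75490001 to 75590000, had 1.09 (1.06 to 1.12). The unbroken run of windows with an excess over 25% therefore ended 800 kb from the deletion.

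Within that run the excess was smallest next to the junction, where both mutants were low. In window 1 observed over expected was 0.899 in DelB and 0.713 in DelBs. The level itself peaked in window 8, at 75590001 to 75690000, in all 3 libraries: 5.44 in DelB, 3.21 in DelBs and 4.07 in WT. DelB was higher than WT in windows 5 to 8, though in window 7 their intervals overlapped (3.28 in DelB, 3.18 in WT), while DelBs was below WT in every window of the upstream side. The expected level of WT is that of longer distances, so this does not mean fewer contacts in DelBs. In window 5 WT had 1819 counts and DelBs 9162.

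**Figure D1:**
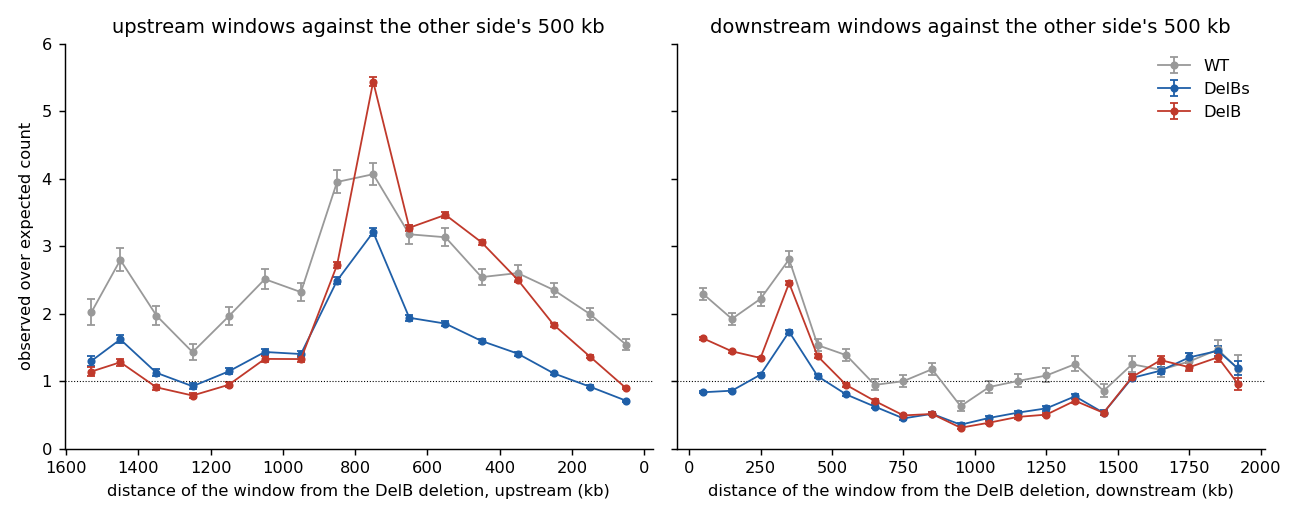
Observed over expected counts of WT, DelBs and DelB in 100 kb windows against the opposite side's 500 kb, by distance of the window's middle from the DelB deletion (kb). Bars are exact 95% Poisson intervals of 1 library each; DelB reaches 5.44 in upstream window 8 and DelBs 3.21, and beyond that window the mutants lie close together.

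At 10 kb resolution the upstream edge of the excess was a steep drop followed by a slower decline. The steepest fall, by a rule chosen after the values were seen, lay after 75620000, which is 770 kb from the deletion. The ratio was 1.88 in the 50 kb inside it and 1.30 in the 50 kb outside it, a change of -0.54 on the log2 scale. Bin 75630001 to 75640000 had 1.95, bin 75620001 to 75630000 had 1.46, bin 75590001 to 75600000 had 1.19 and bin 75530001 to 75540000 had 1.00. All 77 bins inside the step had intervals above 1, with a median of 1.72 and a highest ratio of 2.31 (2.13 to 2.505) at 75920001 to 75930000.

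The fall coincided in position with a domain boundary that both alleles and WT share. Insulation, the log2 of the mean count spanning a point within 200 kb relative to the library's mean, had a local minimum after 75610000 in all 3 libraries. Its value was -0.83 in DelB, -0.90 in DelBs and -1.003 in WT, and it lay 10 kb from the steepest fall. Pairs on the same side that span this step, 500 kb each way, stood in a ratio of 0.984 (0.971 to 0.997), close to 1.

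Beyond the step the ratio passed below 1. Windows 10 to 16, out to 74830001, had ratios of 0.791 to 0.947, lowest in window 15 (74890001 to 74990000) with 0.791 (0.749 to 0.836) from 2511 counts in DelB and 2703 in DelBs. Observed over expected in that window was 1.28 in DelB, 1.62 in DelBs and 2.80 in WT. This direction depended on the distance correction: as scaled counts alone, windows 10 to 16 had ratios of 0.972 to 1.22, and only windows 14 and 15 were under 1. Of the 78 bins beyond the step with at least 50 DelBs counts, 23 had intervals below 1 and 7 above.

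Along the downstream side the excess started at its highest value and faded over a shorter stretch. Window 1, at 78060001 to 78160000, had the highest ratio of the profile against the upstream 500 kb, 1.95 (1.91 to 2.00), from 39963 counts in DelB and 10433 in DelBs. Observed over expected there was 1.64 in DelB and 0.838 in DelBs, so that DelBs was under its same-side mean. Window 2 had 1.68 and window 3 had 1.22 (1.19 to 1.26). The unbroken run of windows with an excess over 25% therefore ended 200 kb from the deletion.

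A second rise followed. Window 4, at 78360001 to 78460000, had 1.42 (1.38 to 1.45), and window 5 had 1.28. Window 4 was also the window of highest level on this side in all 3 libraries, with 2.46 in DelB, 1.74 in DelBs and 2.81 in WT. The ratio then declined through 1.17, 1.13 and 1.10 in windows 6 to 8 to 0.996 in window 9. Window 8 changed sides with the settings: it had 0.956 with the authors' KR-balanced values and 0.954 with a coverage factor per bin. The end at 200 kb was not fixed by the data: window 3 lies just under the limit of 25%, and the end moved to 400 kb with a coverage factor per bin or 200 kb windows, to 500 kb with an expected level that left out the interval inverted in InvF, and to 900 kb without distance correction.

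The far downstream windows had no such excess. Windows 10 to 20 had ratios of 0.809 to 1.13. The lowest full window was window 13, at 79260001 to 79360000, with 0.845 (0.780 to 0.914), and the last window, 40 kb long, had 0.809 (0.711 to 0.920). Window 17, at 79660001 to 79760000, stood above its neighbours with 1.13 (1.06 to 1.21) between 1.01 and 0.892. As scaled counts, windows 10 to 19 had ratios of 1.04 to 1.40 and window 20 had 0.978, so in windows 10 to 19 values below 1 appeared only once distance was matched.

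The downstream step was steepest after 78220000, 160 kb from the deletion. The ratio was 1.83 in the 50 kb inside it and 1.31 in the 50 kb outside, a change of -0.48 on the log2 scale. All 16 bins inside had ratios of 1.60 to 2.32, the highest in bin 78080001 to 78090000 (4278 counts in DelB, 871 in DelBs). Of the 34 bins from the step to 500 kb, 32 had intervals above 1, with a median of 1.29 and a highest ratio of 1.60 in bin 78410001 to 78420000. The bins of the second rise, 78390001 to 78430000, had ratios of 1.53 to 1.60.

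Here the step did not lie at a boundary of WT. The nearest insulation minimum was 260 kb away in WT, after 78480000. In DelB it was 40 kb away, after 78180000, with a value of -0.34, and in DelBs 10 kb away, after 78210000, with a value of 0.21, which is above the library's mean. Within 200 kb these points span pairs across the junction in DelB and pairs with the retained segment in DelBs. Those minima thus rest on unlike pairs, and the DelB minimum shares pairs with the ratio. On the same side, pairs between the 160 kb inside the step and the rest of the 500 kb had a ratio of 0.943 (0.928 to 0.958), and pairs between those 160 kb and the side beyond 500 kb had 0.927 (0.903 to 0.951). The bins with the highest ratio across the junction thus had ratios slightly under 1 with their own side.

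**Figure D2:**
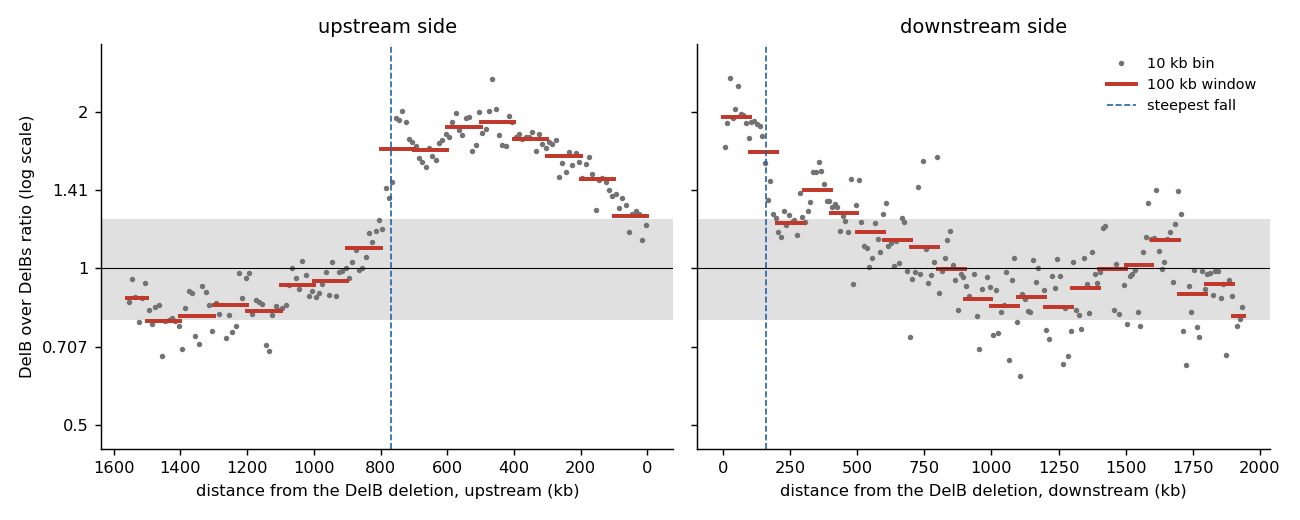
DelB over DelBs ratio (log axis) of 10 kb bins with at least 50 DelBs counts (points) and 100 kb windows (red lines) against the opposite 500 kb, by distance from the DelB deletion (kb). The grey band spans the middle 95% of same-side 100 kb blocks, 0.795 to 1.24, and the dashed lines mark the steepest falls at 770 kb upstream and 160 kb downstream.

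Both sides were then divided at their steps. The steps were picked from this same ratio, so a higher value inside them than outside was fixed by the choice, and the values are a description. Pairs of the 770 kb inside the upstream step with the 160 kb inside the downstream step had a ratio of 1.80 (1.78 to 1.83), with observed over expected of 1.98 in DelB and 1.10 in DelBs. With the downstream stretch from the step to 500 kb the ratio was 1.43 (1.41 to 1.45), and with the rest of the downstream side it was 1.09 (1.08 to 1.11). The stretch upstream of the upstream step had 0.910 (0.888 to 0.934) with the innermost 160 kb, 1.06 with the next part and 1.10 with the rest. The value of 0.910 turned to 1.17 as a ratio of scaled counts.

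Blocks of 100 kb by 100 kb were laid out from the deletion outward without regard to the steps, and 285 across the deletion had an expected count of at least 50 in each library. A block was called where its ratio passed 1.5, and 30 of the 285 did (10.5%). Among 1783 same-side blocks 1 did (0.0561%), and among all 2068 blocks 31 did (1.5%). Below the inverse of 1.5 lay 1 block across the deletion (0.351%), 3 same-side blocks (0.168%) and 4 of all blocks (0.193%). The median ratio was 1.07 across the deletion and 0.996 on the same side, and 29 blocks across the deletion exceeded the highest same-side block, at 1.57. Same-side pairs set the expected level, so the centre of their ratios near 1 was fixed by construction, and only their spread is informative.

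The called blocks were clustered. None of the 30 lay wholly upstream of the upstream step, and the farthest were in window 8, which holds the step. Of the 19 blocks that hold the step, 6 were called. The step was picked from this same ratio, so the place of the blocks relative to it is a description. Along the downstream side 15 lay in windows 1 and 2, 12 in windows 3 to 5 and 3 beyond, the farthest in window 7. Of the 35 blocks wholly inside the upstream step and within the first 500 kb downstream, 23 were called and the median was 1.65. For the downstream windows the medians over the 8 upstream windows were 2.02, 1.83, 1.36, 1.68 and 1.52 in windows 1 to 5, so the dip in window 3 and the second rise in window 4 were seen in the medians too.

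The 5 highest blocks all involved the first 200 kb downstream. Downstream window 1 had 2.28 (2.17 to 2.40) with 76090001 to 76190000, from 7406 counts in DelB and 2027 in DelBs, and 2.28 with 75990001 to 76090000. It had 2.14 with 75890001 to 75990000 and 2.11 with 76190001 to 76290000. Downstream window 2 had 2.06 with 75890001 to 75990000. The block with the highest level, upstream window 8 with downstream window 4, was not among them: its observed over expected was 8.86 in DelB, 5.19 in DelBs and 5.62 in WT, and its ratio was 1.71 (1.64 to 1.78).

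The lowest blocks mostly involved that same downstream window 1, paired with the stretch beyond the upstream step. It had 0.622 (0.552 to 0.701) with 74890001 to 74990000, from 481 counts in DelB and 652 in DelBs. It had 0.709 with 75290001 to 75390000, 0.719 with 75190001 to 75290000 and 0.719 with 74990001 to 75090000. The fifth, 76290001 to 76390000 with 79760001 to 79860000, had 0.719 (0.611 to 0.846). As scaled counts these 5 blocks also stood below 1, at 0.772 to 0.945, although the counting interval of the scaled ratio lay wholly below 1 only for the lowest.

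**Figure D3:**
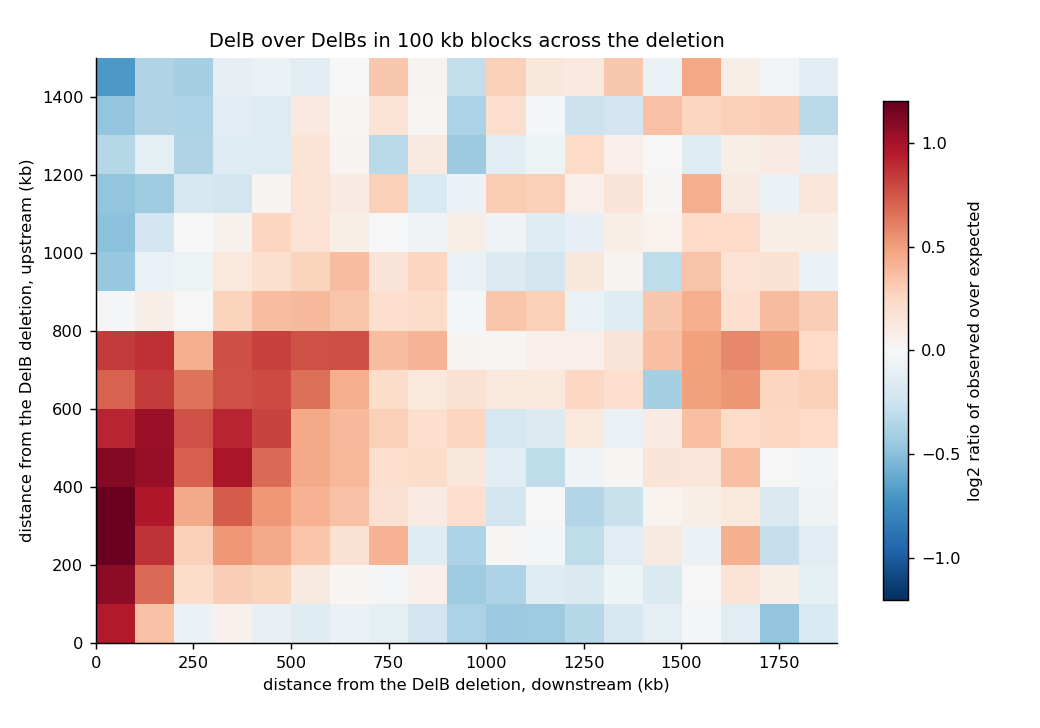
Log2 ratio of DelB over DelBs for 285 blocks of 100 kb by 100 kb across the deletion, by distance downstream (x axis, kb) and upstream (y axis, kb) from the DelB deletion. The red corner, up to 800 kb upstream and strongest in the first 200 kb downstream, holds most of the 30 blocks above 1.5, and the blue column above it holds 4 of the 5 lowest blocks.

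Read by distance on each allele, the libraries differed most over pairs under 1000 kb apart. Since a pair lies 200 kb closer in DelB, each distance class holds different pairs in the 2 libraries. From 200 kb to 300 kb, observed over expected was 1.15 in DelB and 0.512 in DelBs. It was 1.504 and 0.562 from 300 kb to 400 kb, 1.82 and 0.694 from 400 kb to 500 kb, and 2.09 and 1.09 from 500 kb to 750 kb. Both were highest in neighbouring classes, DelB with 2.25 at 750 kb to 1000 kb (DelBs 1.35) and DelBs with 1.37 at 1000 kb to 1500 kb (DelB 1.41). From 1500 kb to 2000 kb DelB was the lower, with 0.837 against 0.888 in DelBs. It was the higher again from 2000 kb to 3000 kb, with 0.993 (0.979 to 1.01) against 0.883 (0.871 to 0.895), and from 3000 kb to 4000 kb, with 1.11 against 1.04. Pairs under 200 kb exist across the junction only in DelB, with 0.996 at 20 kb to 100 kb and 1.03 at 100 kb to 200 kb.

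**Figure D4:**
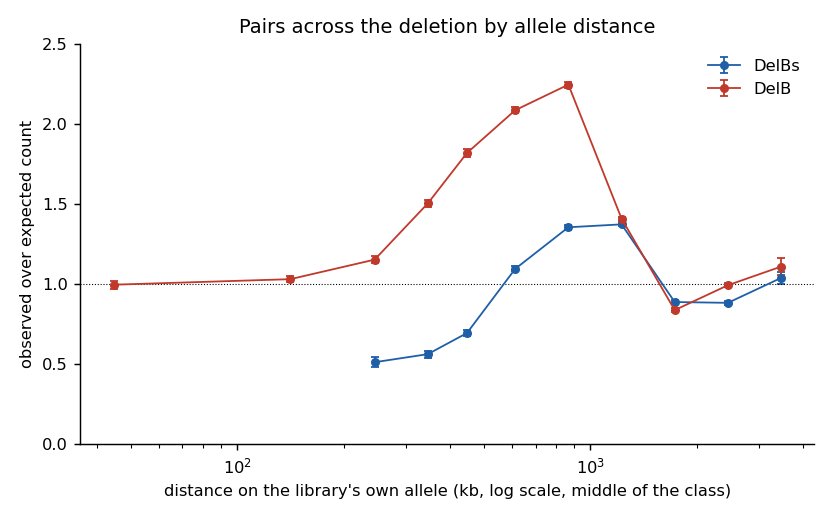
Observed over expected counts of pairs across the deletion in DelB and DelBs, by distance on the library's own allele (kb, log axis, middle of each class). Bars are exact 95% Poisson intervals; DelB is at 0.996 or more up to 1500 kb, whereas DelBs starts at 0.512 and meets DelB at 1000 kb to 1500 kb with 1.37 against 1.41.

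The share of a region's contacts that cross the deletion needs no expected level. Only partners on the upstream or downstream side were counted. Contacts with the 200 kb that DelBs keeps, with the deleted interval in WT and with bins beyond the sides were left out. Counting them would lower the shares, so these are not shares of all contacts of a region. For bins of the downstream side, 34.6% of counts with partners at least 20 kb away crossed in DelB, 23.0% in DelBs and 10.2% in WT. For bins of the upstream side the shares were 32.0%, 19.9% and 9.85%. The difference in percentage points was largest in downstream window 1, where the share was 62.1% (61.8 to 62.4) in DelB and 33.3% (32.9 to 33.6) in DelBs, against 14.8% in WT. As a quotient of the shares, DelB over DelBs was 1.87 there and higher in upstream windows 4, 5 and 6, at 1.88, 1.97 and 1.90. On the downstream side DelB and DelBs were within 2 percentage points of each other from window 8 onward.

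On the upstream side the shares in windows 1 to 8 were 25.5% to 33.4% in DelB and 13.9% to 19.3% in DelBs. In both they were highest in window 1, lower in windows 3 to 7 and higher again in window 8, at 30.5% and 18.4%. They dropped to 18.9% and 14.0% in window 9 and to 10.1% and 8.39% in window 10. These shares hold the effect of the shorter distance in DelB as well.

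**Figure D5:**
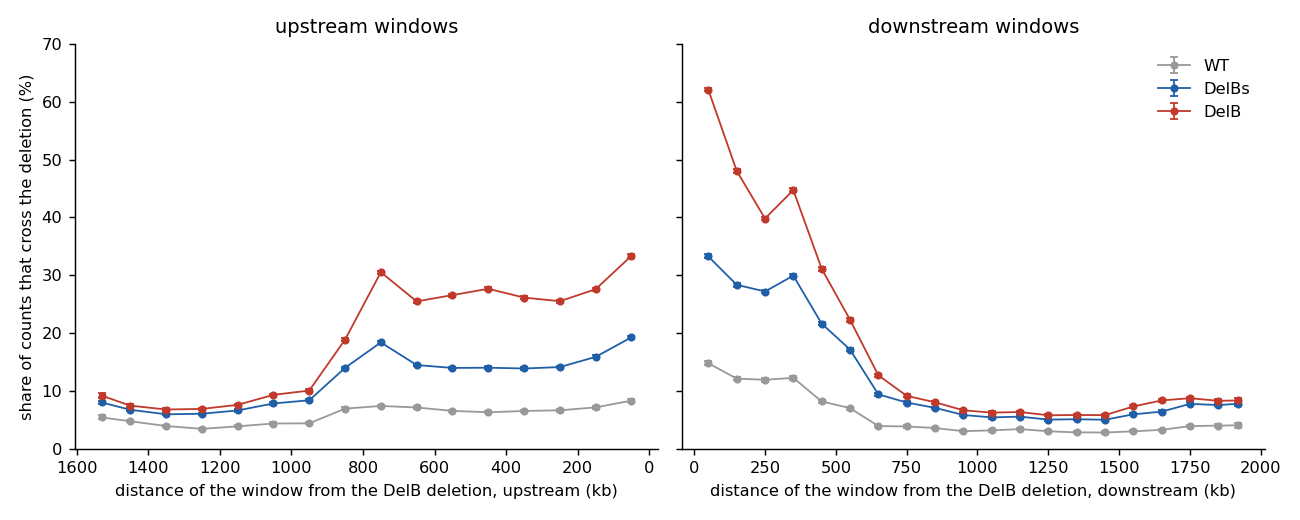
Share of counts (%) that cross the deletion, for partners at least 20 kb away, in 100 kb windows of the upstream and downstream sides, by distance from the DelB deletion (kb). Only partners on the upstream or downstream side are counted. Bars are exact 95% Clopper-Pearson intervals; downstream window 1 has 62.1% in DelB, 33.3% in DelBs and 14.8% in WT.

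The 200 kb that DelBs keeps showed how contacts fell along the retained segment. Set against the upstream 500 kb in DelBs, its 4 parts of 50 kb had observed over expected of 1.54, 1.49, 0.917 and 0.887 from the deletion outward. In WT the same parts had 5.64, 4.91, 2.55 and 2.58. Both libraries thus dropped between the second part and the third, whose common edge is 77960000, and the drop was not resolved more finely. An insulation minimum lay after 77940000 in both, with a value of -0.76 in WT and -0.58 in DelBs. The downstream window 1 that follows the segment had 0.838 in DelBs, close to the last of the 4 parts, and 1.64 in DelB, in which it adjoins the upstream side.

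The authors' deposited difference maps, each a mutant minus the same WT library, cover 14508 of these pairs, up to 79000000. In the authors' deposited table for DelB, 2576 pairs (17.8%) had a score above 0, and in that for DelBs 1420 pairs (9.79%). Both share the WT library, so they are given side by side only. The share over the other pairs of those maps was not taken, so these counts are not read as particular to pairs across the deletion. Here each window was set against the whole covered part of the opposite side, not its 500 kb. Each upstream window named below held 930 pairs and each downstream window 1560. The score has no stated formula, so whether it allows for the shorter distance in DelB is not known. In upstream window 5, the authors' deposited tables had 318 such pairs for DelB and 139 for DelBs, in window 8 they had 473 and 363, and in window 9, beyond the step, 167 and 225. In downstream window 1 the authors' deposited tables had 695 and 219 pairs, in window 3 they had 310 and 223, and in window 4 they had 697 and 500.

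Some counts were found inside the deleted intervals, at 2.31% of the scaled WT count in DelB and 1.22% in DelBs. WT-like reads at those rates would make up 0.502% of the counts across the deletion in DelB and 0.500% in DelBs. With them subtracted, the ratio in the 500 kb flanks was 1.54. Probe efficiency and mappability of single bins were not tested one by one, but with a coverage factor per bin that ratio was 1.62, and with the balanced maps 1.44.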

How the data were processed

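Capture Hi-C read pairs were mapped with Bowtie2 2.2.6 to mm9, per the submitters' processing notes. The authors' deposited raw maps hold counts of read pairs between 10 kb bins (quality limit 30, from the file names). The balanced maps deposited by the authors hold a signal after KR balancing, according to their names. The deposited difference maps hold a score with no stated formula. Removal of PCR duplicates is not stated, so intervals treat counts as independent. No column was left unmatched (0).

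Counts were analysed in Python 3.11.15 (scipy 1.17.1, numpy 2.4.6, matplotlib 3.10.9). The expected count was the mean at each distance over pairs of the whole map on one side of the DelB deletion, at least 20 kb apart, including the interval that InvF inverts, which is intact in DelB and DelBs. Scaled counts were divided by the sum of those same-side pairs. Ratios have exact conditional binomial intervals, observed over expected Poisson intervals and shares Clopper-Pearson intervals. The steepest fall was sought between adjoining 50 kb parts with at least 1000 DelBs counts each. Insulation minima were at least 0.2 deep, with deleted bins removed. Every window of both profiles, their extremes and ends, and the 5 highest and 5 lowest blocks were to be named. The pairs, limits and lists were chosen with earlier results of these data known. Functions were tested on simulated data. Genes were named from the GRCm38 RefSeq table, for order alone. No mm9 genome was used, so no sequence is shown.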

Additional observations from a re-analysis of the deposited data

Results flagged for a closer look

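Counts with a bin inside the deleted interval, which the comparison does not use, were above 0 in both homozygous mutants. They amounted to 2.31% of the scaled WT count in DelB (42968 counts) and to 1.22% in DelBs (21303 counts).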

How the results depend on the processing

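No paired analysis was possible because there is 1 library per genotype, and no library could be left out. No alternative reversed a direction over all pairs or in the flanks. In the 500 kb flanks the ratio was 1.44 with KR-balanced values, 1.54 with WT-like counts subtracted, 1.62 with a coverage factor per bin, 1.59 with an expected level without the inverted interval, 1.65 with 250 kb flanks, 1.47 with 1000 kb flanks and 2.57 without distance correction. Alternatives chosen after seeing the data took the expected level from one side: 1.60 from downstream pairs and 1.49 from upstream pairs. Over all pairs the ratio was 1.22, 1.37 and 1.41 with balanced values, subtraction and without the inverted interval, and 1.87 without distance correction. The difference in crossing share, 11.6 percentage points downstream and 12.0 upstream, was 9.16 and 10.6 with balanced values, 11.9 and 12.3 with subtraction, and 13.2 and 14.5 with partners at least 100 kb away. The 30 of 285 blocks above 1.5 became 133 of 853 with 50 kb blocks and 8 of 63 with 200 kb blocks (same-side 0 of 416). They became 6 of 285 at a limit of 2 (same-side 0 of 1783) and 75 of 285 without distance correction (same-side 2 of 1783). With 50 kb blocks, 43 of 5428 same-side blocks also passed, and the reason was not tested. Below the inverse of 1.5 lay 25 of the 853 blocks across the deletion and 60 of the 5428 same-side blocks. The downstream end at 200 kb moved to 400 kb with the coverage factor or 200 kb windows, to 500 kb without the inverted interval and to 900 kb without distance correction, and stayed in the 6 other alternatives. The upstream end stayed at 800 kb in 9 of 10 alternatives and was 900 kb without distance correction. Apart from block and window sizes, limits and the distance term, whose construction sets the change, the cause was not tested. Pairs without a balanced value numbered 16 in DelB, 3 in DelBs and 14 in WT.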
